A study of Homo sapiens with 14 samples.

Results

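Parental OVCAR3 and parental A2780, both established human ovarian cancer cell lines, were compared by RNA sequencing. The contrast is between the 4 of the 14 count files whose titles name the unmodified lines, 2 libraries of OVCAR3 and 2 of A2780. Libraries of other groups also entered the fit, and every annotated gene was examined. The labels give both groups the genotype WT and no drug, age or passage. By their names and labels, the cells share an ovarian cancer origin and total RNA taken by the same extraction. Each line is 1 established culture from 1 tumour, so differences between these groups are differences between 2 lines. The other 10 libraries are resistant A2780 cells, labelled A2780-DDP, libraries labelled OVCAR3-DDP, and resistant OVCAR3 cells with a control hairpin (shNC) or 1 of 2 hairpins against ADAR1, with 2 libraries per group. Cisplatin resistance and RNA editing by ADAR1 were the subject of the study.

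OVCAR3 is widely used as a line with features of high-grade serous carcinoma. A2780 is a line from an ovarian tumour whose histological type is less certain. Müllerian and serous tumours usually carry the transcription factor PAX8, simple-epithelium keratins and surface antigens such as mesothelin. HOX genes, which encode transcription factors that mark position along the body axis, tend to keep the pattern of the tissue a cell came from. Genes whose promoters lie in CpG islands are usually open in most tissues, and in cancer lines such promoters are often silenced by DNA methylation.

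The 4 parental libraries held 31195174 to 49115255 reads assigned to genes, against 20428538 to 49115255 over the whole series. Mitochondrial transcripts made up 2.5% to 2.72% of the assigned reads in OVCAR3 and 3.40% to 3.51% in A2780, while the hairpin libraries held 0.726% to 0.947%. Across genes, log2 CPM (assigned reads scaled to the same library total) of the 2 libraries correlated at r = 0.992 in OVCAR3 and 0.996 in A2780. The chi-square per gene, which grows with the difference between the 2 libraries and with depth, was 31.5 in OVCAR3 and 4.64 in A2780. The OVCAR3 value was the largest of the 7 groups. Whether the 2 libraries of a line are separate cultures is not stated, and the p-values below rest on a spread that may be technical. The libraries labelled OVCAR3-DDP stood apart: KRT7 averaged 0.246 CPM there, against 1083 CPM in parental OVCAR3 and 1006 CPM in the hairpin control. They are therefore not used below as a form of OVCAR3, but entered the main fit as a group of their own.

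Of 23031 genes tested, 15203 (66%) differed between the parental lines at a Benjamini-Hochberg adjusted p below 0.05 in edgeR's quasi-likelihood test. Such genes are referred to as called. OVCAR3 was higher at 7442 of them (32.3% of the genes tested) and A2780 at 7761 (33.7%), and 9464 (41.1%) differed at least 2-fold, 4811 of them higher in OVCAR3 and 4653 higher in A2780. The median log2 difference (OVCAR3 over A2780) was -0.006 and the median absolute difference was 0.91. The scaling of libraries centres the log2 differences near 0, so the value of -0.006 and the near-even split are largely set by it. Such scaling takes most genes as unchanged, whereas 66% were called here. The filter and the spread came from 8 libraries, those of A2780-DDP and OVCAR3-DDP included. Of the 23031 genes, 294 had no read in any of the 4 parental libraries. With the 4 parental libraries alone, 14179 of 20688 genes tested were called, 7205 higher in OVCAR3 and 6974 in A2780. Over the 14965 protein-coding genes tested the share called was larger, 72.9%, with 5122 higher in OVCAR3 and 5790 in A2780. With shares of this size, any group of genes will hold many called members. Each count below is to be read against these shares, and a list of protein-coding genes against the larger one. A gene can pass the filter through its reads in 1 group alone. In lists with many silent genes, the share called and the size of the median are therefore partly set by the filter.

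**Figure D1:**
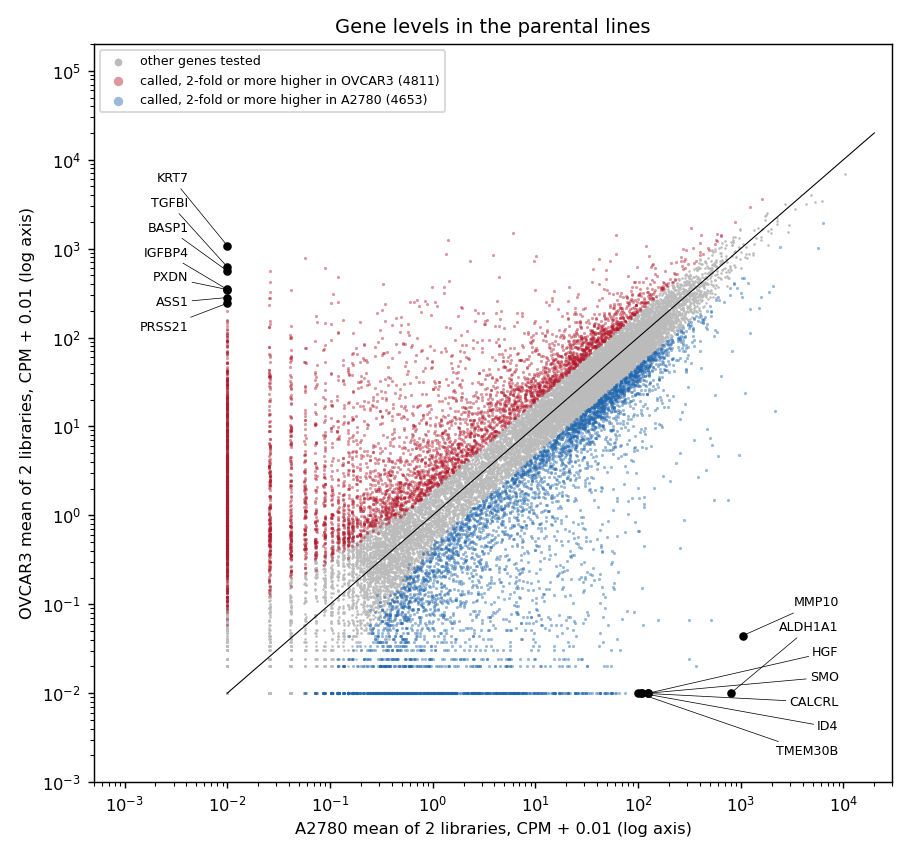
Mean level of each tested gene in A2780 (horizontal) and OVCAR3 (vertical), in CPM plus 0.01 on log axes, n = 2 libraries per line. Colours mark genes called with at least a 2-fold difference, and the labelled genes lie on the edges of the plot because the other line held no or almost no reads of them.

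The largest differences were between a high level in one line and no reads in the other. KRT7, a keratin of simple and glandular epithelia on chromosome 12 (52232520 to 52252186), was at 1135 and 1030 CPM in the OVCAR3 libraries and had no read in either A2780 library. Against a floor of 3 counts over both A2780 libraries, KRT7 was at least 22887-fold higher in OVCAR3. TGFBI, a secreted matrix protein induced by TGF-beta, was at 617 and 628 CPM in OVCAR3 and at 0 in A2780, at least 13281-fold higher. BASP1, a membrane-bound protein known from nerve growth cones, was at 473 and 649 CPM against 0, at least 12247-fold higher. The other 9 genes of the 12 most different in this direction were also at 0 in both A2780 libraries. They were IGFBP4, which binds insulin-like growth factors, PXDN, a peroxidase that cross-links basement membrane collagen, ASS1, an enzyme of arginine synthesis, PRSS21, a testis-type serine protease, CCN5, a secreted matricellular protein, PHLDB2, SSTR1, a somatostatin receptor, TRIM29 and GSTM3, a glutathione transferase. Their lower bounds ranged from 2894-fold for GSTM3 to 7595-fold for PXDN.

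In the other direction, ALDH1A1, an aldehyde dehydrogenase that makes retinoic acid and a common stem cell marker, was at 786 and 811 CPM in A2780 and had no read in OVCAR3, at least 22633-fold higher in A2780. HGF, the ligand of the receptor MET, was at 126 and 125 CPM in A2780 and at 0 in OVCAR3, at least 3554-fold higher. SMO, the signal-passing receptor of the hedgehog pathway, was at 127 and 123 CPM against 0, at least 3539-fold higher. MMP10, a matrix metalloproteinase, reached 1053 and 1035 CPM in A2780 with 0.0279 and 0.0407 CPM in OVCAR3, where 3 reads give a ratio of 29571 with a 95% counting interval from 10118 to 143395. UCHL1, a neuronal ubiquitin hydrolase, was at 303 and 319 CPM in A2780 against 0.0279 and 0 CPM. The remaining 7 of the 12 were CALCRL, ID4, TMEM30B, NLRP2, HTR7, COL1A2 and GYG2, all without a read in OVCAR3. Ratios against so few reads cover counting error only.

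The promoters of the first 3 genes in each direction that RefSeq's table lists are shown, because these genes pass from a high level to no read. Each run is the 250 bases upstream of the annotated start in GRCh38.p14, 5′ to 3′ on the gene's strand, with each CG dinucleotide in capitals.
TGFBI, chr5:136028738-136028987, plus strand: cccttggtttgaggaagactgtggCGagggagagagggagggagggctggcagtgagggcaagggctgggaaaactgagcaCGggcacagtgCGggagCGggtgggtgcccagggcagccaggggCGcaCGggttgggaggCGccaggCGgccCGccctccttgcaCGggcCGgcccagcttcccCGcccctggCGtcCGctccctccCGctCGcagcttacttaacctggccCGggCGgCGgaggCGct
BASP1, chr5:17216573-17216822, plus strand: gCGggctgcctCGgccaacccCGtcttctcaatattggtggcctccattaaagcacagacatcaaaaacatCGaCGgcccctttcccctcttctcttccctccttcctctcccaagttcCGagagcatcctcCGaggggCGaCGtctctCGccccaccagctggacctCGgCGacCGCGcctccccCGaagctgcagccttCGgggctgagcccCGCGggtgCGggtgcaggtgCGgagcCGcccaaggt
IGFBP4, chr17:40443200-40443449, plus strand: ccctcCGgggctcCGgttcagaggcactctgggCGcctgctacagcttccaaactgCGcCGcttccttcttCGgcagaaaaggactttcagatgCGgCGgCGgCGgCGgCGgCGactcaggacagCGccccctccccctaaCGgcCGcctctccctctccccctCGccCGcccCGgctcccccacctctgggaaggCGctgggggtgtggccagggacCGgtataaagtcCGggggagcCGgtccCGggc
ALDH1A1, chr9:72953054-72953303, minus strand: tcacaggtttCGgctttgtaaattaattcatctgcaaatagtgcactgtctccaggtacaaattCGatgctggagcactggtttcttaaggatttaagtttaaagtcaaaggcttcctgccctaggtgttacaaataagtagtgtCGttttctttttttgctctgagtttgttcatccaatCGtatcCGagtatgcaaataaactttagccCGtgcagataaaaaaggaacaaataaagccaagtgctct
HGF, chr7:81770048-81770297, minus strand: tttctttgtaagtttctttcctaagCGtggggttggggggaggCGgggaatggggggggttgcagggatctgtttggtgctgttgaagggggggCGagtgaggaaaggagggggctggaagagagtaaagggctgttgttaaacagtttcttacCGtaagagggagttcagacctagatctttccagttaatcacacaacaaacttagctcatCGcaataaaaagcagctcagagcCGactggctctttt
SMO, chr7:129188383-129188632, plus strand: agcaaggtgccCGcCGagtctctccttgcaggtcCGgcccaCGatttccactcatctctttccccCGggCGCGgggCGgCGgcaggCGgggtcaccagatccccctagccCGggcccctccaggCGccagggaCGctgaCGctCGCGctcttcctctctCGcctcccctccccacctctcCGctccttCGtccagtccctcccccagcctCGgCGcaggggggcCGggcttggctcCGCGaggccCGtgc
TGFBI, BASP1, IGFBP4 and SMO held 20, 21, 24 and 25 CG dinucleotides in this window, at a GC content of 65.6% to 73.6%. ALDH1A1 and HGF held 6 each, at 38.4% and 50% GC. A match or its absence describes the sequence only, since no methylation was measured.

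The labelled tissue was first compared with its usual markers, of which 22 were listed and 16 could be tested. OVCAR3 was higher at 12 and A2780 at none, and the median log2 difference was 4.30. Among the markers higher in OVCAR3 were KRT7, KRT8, KRT18 and KRT19, which are counted again with the keratins below, so the 2 lists are not separate observations. MSLN, which encodes mesothelin, was at 260 and 239 CPM in OVCAR3 and at 0.0962 and 0.122 CPM in A2780. FOLR1, the folate receptor of ovarian carcinoma, was at 431 and 430 CPM against 1.47 and 1.41 CPM, a log2 difference of 8.27 ± 0.15 (SE). PAX8 was low in both lines, at 3.46 and 4.70 CPM in OVCAR3 and 0.481 and 0.275 CPM in A2780, and MUC16, the CA125 antigen, was at 1.81 and 5.54 CPM against 0, a call that DESeq2's Wald test did not make (adjusted p = 0.0623). In both genes the 2 lines did not overlap.

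Several defining markers were absent or near absent, also in the libraries labelled OVCAR3. Whether the libraries are the lines that their titles name was not tested. WT1 and SOX17 had no read in any of the 4 libraries. CDH1, the epithelial cadherin, was at 0.251 and 0.143 CPM in OVCAR3 and 0 and 0.0611 CPM in A2780, too few reads to be tested. EPCAM, an adhesion molecule of most carcinomas, was at 16.6 and 16.1 CPM in OVCAR3 and 10.9 and 10.4 CPM in A2780, a log2 difference of 0.67 ± 0.15. MECOM, often gained in serous tumours, was at 9.51 and 13.6 CPM against 10.7 and 9.54 CPM, overlapping, with an edgeR adjusted p of 0.28. Without the first OVCAR3 library MECOM was called higher in OVCAR3, by 0.47.

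Keratins, the intermediate filament proteins of epithelia, differed in 1 direction. Of 20 listed, 13 were tested, and 12 were higher in OVCAR3 and none in A2780, with a median log2 difference of 8.34, or 4.95 when genes without a read in A2780 are set at their bound. The other listed keratins had too few reads to be tested, so the share called is partly set by the filter. KRT8 was at 1492 and 1354 CPM in OVCAR3 and 59.0 and 62.4 CPM in A2780, and its partner KRT18 at 875 and 767 CPM against 126 and 131 CPM. A2780 thus kept reads of the simple-epithelium pair, at log2 differences of 4.60 ± 0.11 and 2.73 ± 0.11. KRT19 was at 113 and 85.4 CPM in OVCAR3 and 0 and 0.0611 CPM in A2780. KRT80 was at 318 and 361 CPM against 0.0321 and 0.0306 CPM, and KRT17, a keratin of basal and stressed epithelium, at 99.0 and 79.6 CPM against 0.256 and 0.306 CPM.

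Junction and polarity genes of epithelia were split. Of 34 tested, 19 were higher in OVCAR3 and 13 in A2780 (median log2 0.98). Higher in OVCAR3 were the splicing factor ESRP2 (48.0 and 57.5 CPM against 0.321 and 0.122 CPM), the epithelial transcription factor ELF3 (36.9 and 36.3 CPM against 0.160 and 0.0611 CPM) and the desmosome protein PKP2 (25.8 and 27.4 CPM against 0.737 and 0.214 CPM). Higher in A2780 was OCLN, the tight junction protein occludin, at 107 and 94.3 CPM against 0.669 and 0.652 CPM in OVCAR3, a log2 difference of -7.20 ± 0.15. TJP3, CLDN1, F11R and ERBB3 were also higher in A2780, at log2 differences from -1.19 to -2.13. TJP1, the scaffold ZO-1, overlapped between the lines, at 126 and 148 CPM against 145 and 133 CPM.

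Mesenchymal and matrix genes were divided as well, 18 of 37 tested being higher in OVCAR3 and 17 in A2780, with a median of 0. That 0 is the fitted value of a gene without reads, since 1 of the 38 listed had none in any of the 4 libraries. It marks the even division and is no measured lack of difference. The division ran through single protein families. COL5A1, the alpha-1 chain of type V collagen, was at 1316 and 1714 CPM in OVCAR3 and 6.06 and 6.08 CPM in A2780, whereas COL5A2, the alpha-2 chain of the same collagen, was at 1.37 and 1.59 CPM in OVCAR3 and 755 CPM in both A2780 libraries. Their log2 differences were 8.01 ± 0.18 and -8.93 ± 0.16. COL1A2 and COL3A1 were higher in A2780, COL3A1 at 478 and 458 CPM against 9.06 and 9.79 CPM. The fibrillins FBN1 and FBN2 and fibronectin FN1 were higher in OVCAR3, FN1 at 187 and 311 CPM against 0.705 and 0.489 CPM.

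ACTA2, smooth muscle actin, was higher in A2780, at 540 and 546 CPM in A2780 and 1.65 and 1.28 CPM in OVCAR3, and TAGLN, an actin-binding protein of smooth muscle, at 502 and 539 CPM against 5.88 and 6.37 CPM. Vimentin and N-cadherin, which are often read together as mesenchymal markers, pointed in opposite directions. VIM was at 5571 and 5791 CPM in A2780 against 1103 and 930 CPM in OVCAR3, and CDH2 at 276 and 280 CPM in OVCAR3 against 14.6 and 14.7 CPM in A2780. VIM and CDH2 were picked after their values were seen.

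The HOX genes differed by cluster. Of 38 tested, 9 were higher in OVCAR3 and 24 in A2780. In the HOXA cluster 8 of 11 were higher in OVCAR3 and 1 in A2780 (median 2.83), while in HOXB all 9 tested and in HOXD 8 of 9 were higher in A2780 (medians -3.53 and -3.72). In HOXC, 6 of 9 were higher in A2780 and 1 in OVCAR3 (median -1.51).

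HOXA10 and HOXA11 had the highest levels of the HOXA cluster in OVCAR3. HOXA10, a regulator of uterine and Müllerian duct identity, was at 32.8 and 30.6 CPM in OVCAR3 and 0.833 and 1.44 CPM in A2780, and HOXA11 at 40.8 and 38.2 CPM against 11.4 and 13.2 CPM. Their log2 differences were 4.84 ± 0.19 and 1.73 ± 0.13. HOXA9, known as a marker of the fallopian tube, was low in OVCAR3, at 2.82 and 3.93 CPM, and lower in A2780, at 0.0962 and 0.0306 CPM. HOXA2 was the exception, higher in A2780 at 1.44 and 1.47 CPM against 0.418 and 0.346 CPM. HOXA5 overlapped between the lines and HOXA6 did not, and neither was called.

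HOXB2 showed the widest gap of its cluster, at 246 and 263 CPM in A2780 and 0.418 and 0.428 CPM in OVCAR3 (log2 difference -9.17 ± 0.17). HOXB4 was at 39.9 and 44.4 CPM against 0 and 0.366 CPM, and HOXB8 at 61.8 and 63.7 CPM against 1.73 and 1.14 CPM. The gap was smaller at HOXB9 and HOXB13, with HOXB9 at 112 and 113 CPM against 32.0 and 34.4 CPM and HOXB13 at 32.6 and 34.3 CPM against 14 and 15.6 CPM. HOXD13 was at 14.5 and 13.4 CPM in A2780 and 0.251 and 0.0814 CPM in OVCAR3. HOXC11 ran against its cluster, at 12.9 and 12.1 CPM in OVCAR3 and 0.449 and 0.0917 CPM in A2780. HOX clusters hold antisense genes, and since the strand setting of the counting is not given in the sources used here, reads of such pairs cannot be told apart.

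**Figure D2:**
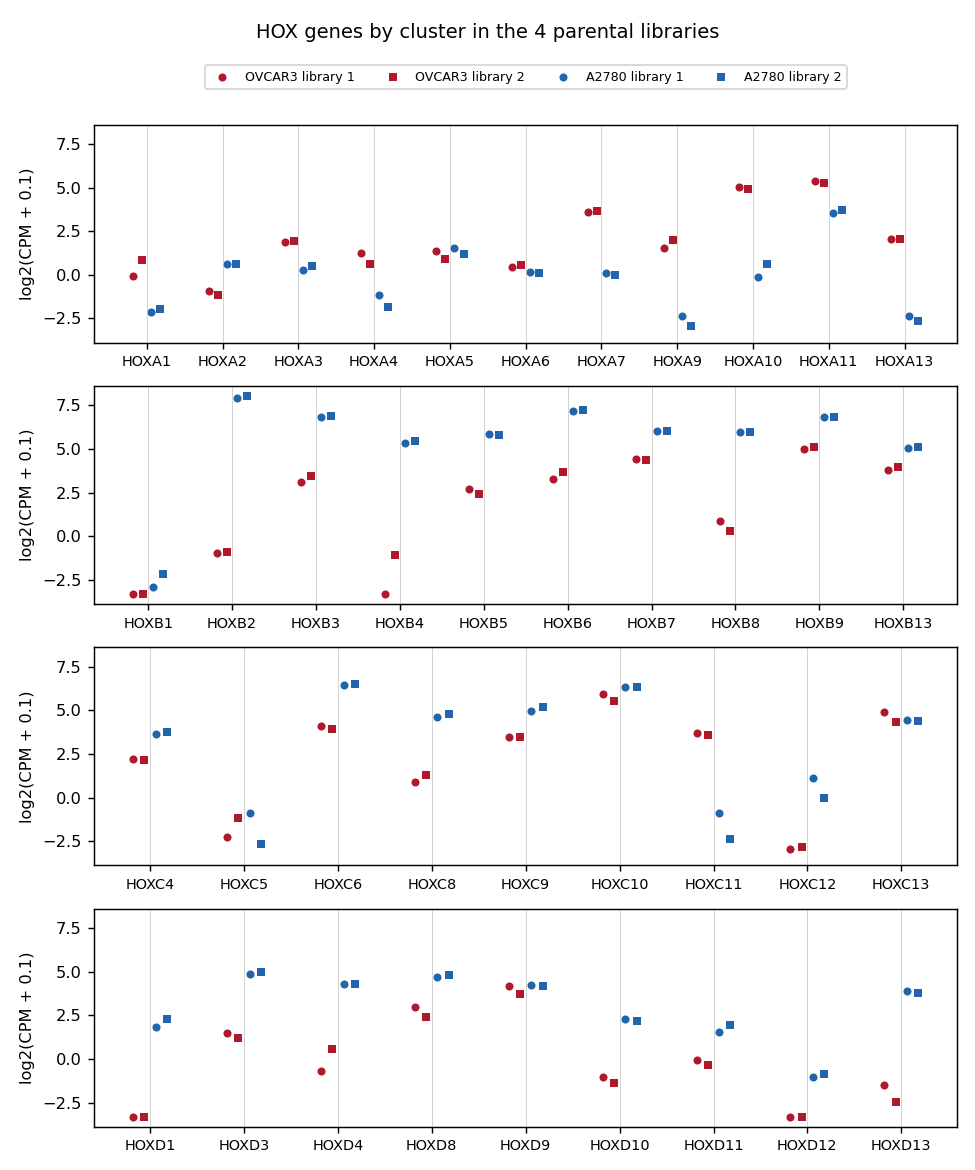
Level of each HOX gene in log2(CPM + 0.1) in the 2 OVCAR3 (red) and 2 A2780 (blue) libraries, 1 panel per cluster with genes in order of their number. The A2780 libraries lie above OVCAR3 at every tested HOXB gene, and below it at the 8 called HOXA genes that were higher in OVCAR3.

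Among 41 tested receptor tyrosine kinases, 18 were higher in OVCAR3 and 15 in A2780, with a median of 0.25. That median was -0.23 when genes under a mean of 5 CPM were left out, and 0.004 when genes without a read in 1 line are set at their bound. MST1R, the receptor of macrophage-stimulating protein, was at 83.2 and 98.9 CPM in OVCAR3 and at 0 in A2780. MET was at 239 and 268 CPM in OVCAR3 and 12 and 13.3 CPM in A2780 (log2 4.38 ± 0.12), while its ligand HGF was read only in A2780 of the 2 parental lines. AXL was at 243 and 223 CPM against 13.4 and 13.8 CPM, and IGF1R at 281 and 336 CPM against 27.4 and 25.1 CPM.

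On the A2780 side, the ephrin receptors EPHA7 (35.9 and 31.9 CPM against 0) and EPHA5 (58.4 and 56.4 CPM against 0.112 and 0.183 CPM) led. RET, the receptor of glial cell line-derived factors, was at 16.6 and 17.7 CPM against 0. FLT4, the lymphatic VEGF receptor, was at 21.4 and 20.8 CPM against 0 and 0.0204 CPM. EGFR, picked after its values were seen, was at 278 and 418 CPM in OVCAR3 and 48.5 and 43.7 CPM in A2780, and its log2 difference of 2.96 ± 0.17 exceeded the spread of the libraries.

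Of 40 Wnt pathway genes tested, 19 were higher in OVCAR3 and 10 in A2780 (median 0.26). The ligands WNT5A (186 and 220 CPM against 0.321 and 0.306 CPM) and WNT7B (39.8 and 40.0 CPM against 0 and 0.0306 CPM), the R-spondin RSPO3 (23.1 and 24.6 CPM against 0) and the secreted inhibitor DKK1 (167 and 145 CPM against 0.0321 and 0.214 CPM) were on the OVCAR3 side. A2780 had more of the receptor FZD8, at 110 and 113 CPM against 17.8 and 15.8 CPM, and of TCF7L1, a repressor of Wnt targets, at 20.3 and 23.4 CPM against 2.79 and 2.16 CPM.

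In the Notch pathway, 7 of 21 genes tested were higher in OVCAR3 and 9 in A2780 (median -0.07). The ligand JAG1 was at 36.5 and 39.4 CPM in OVCAR3 and 0.192 and 0.0917 CPM in A2780, and the receptor NOTCH3 at 64.7 and 64.2 CPM in A2780 and 3.82 and 5.01 CPM in OVCAR3. The targets HES1 and HES6 were higher in A2780, HES1 at 26.3 and 24.3 CPM against 9.12 and 5.90 CPM.

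Of 40 genes of TGF-beta, BMP and activin signalling, 27 were higher in OVCAR3 and 10 in A2780 (median 1.22). BMP2 was at 37.0 and 34.8 CPM in OVCAR3 and at 0 in A2780, whereas BMP7, a related ligand, was at 0 in OVCAR3 and at 16.7 and 17.5 CPM in A2780. ID4, a BMP-induced inhibitor of helix-loop-helix factors, was at 104 and 110 CPM in A2780 and at 0 in OVCAR3. TGFB2 was read almost only in A2780 (17.6 and 18.4 CPM against 0 and 0.0204 CPM), and TGFB1 overlapped between the lines, at 198 and 150 CPM against 194 and 206 CPM. Without the first OVCAR3 library TGFB1 was called, at a log2 difference of -0.37.

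**Figure D3:**
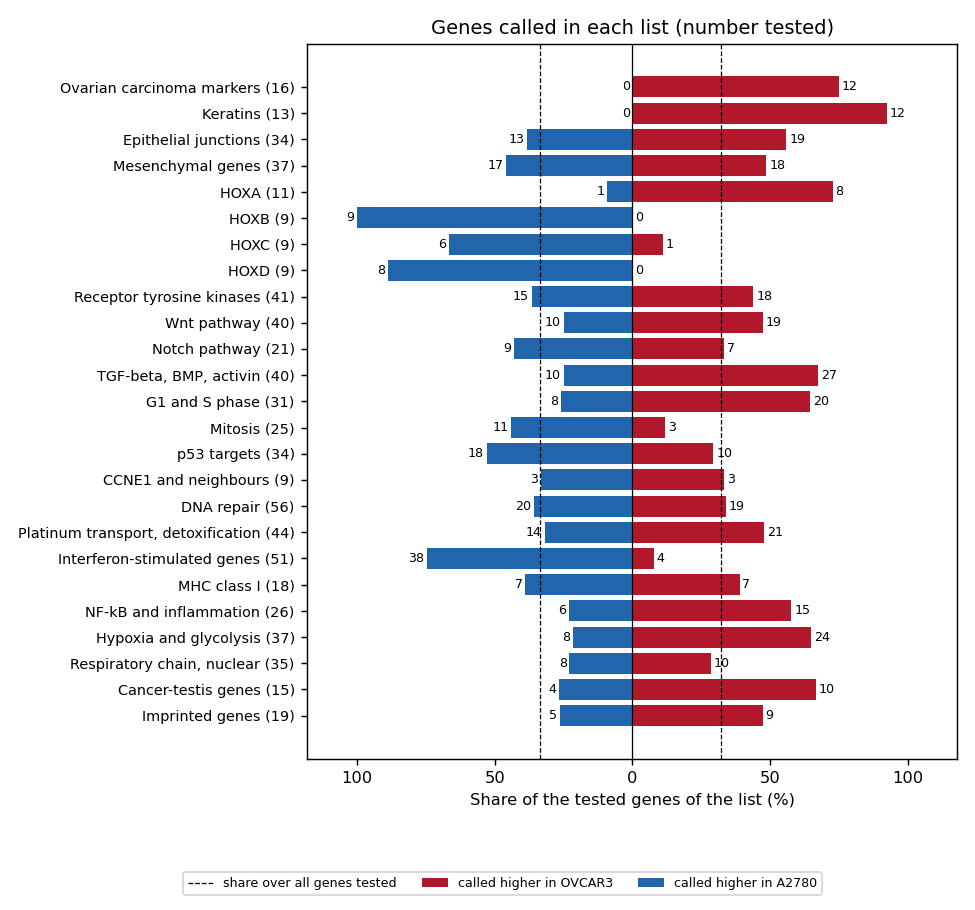
Share of the tested genes of each list that were called higher in OVCAR3 (red, right) or in A2780 (blue, left), with the number of genes at each bar and the number tested beside each name. Dashed lines mark the shares over all genes tested, 32.3% and 33.7%, which keratins on the right and HOXB and HOXD on the left pass by the widest margins.

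Cell cycle genes of G1 and S phase were mostly higher in OVCAR3, with 20 of 31 tested against 8 higher in A2780 (median 0.37). CCND2, a D-type cyclin, was at 157 and 153 CPM in A2780 and 0.112 and 0 CPM in OVCAR3, the largest difference of the list. Its kinase partner CDK6 lay the other way, at 235 and 284 CPM in OVCAR3 and 20.9 and 20.8 CPM in A2780. CDKN2A, which encodes the inhibitors p16 and ARF, was at 162 and 158 CPM against 38.9 and 39.4 CPM, and RB1, the retinoblastoma protein that p16 acts through, at 11.4 and 15.1 CPM against 41.3 and 40.2 CPM. The helicase genes MCM2 and MCM4 were higher in OVCAR3 by 1.77 ± 0.08 and 1.61 ± 0.08. Of 25 mitosis genes, 3 were higher in OVCAR3 and 11 in A2780, with a median of -0.14.

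CCNE1, cyclin E1, is gained with its neighbours on the long arm of chromosome 19 in many serous tumours. It was at 31.3 and 32.0 CPM in OVCAR3 and 10.9 and 12.7 CPM in A2780, a log2 difference of 1.47 ± 0.11. Of the 9 genes of that region tested, URI1 and POP4 were also higher in OVCAR3, by 0.66 ± 0.11 and 0.50 ± 0.12. PLEKHF1 and TSHZ3 were higher in A2780, TSHZ3 at 4.36 and 5.35 CPM against 0. C19orf12 was called higher in A2780, at a log2 difference of -0.28 ± 0.11, a call that was lost under 9 of 13 alternatives, among them those without the second OVCAR3 or the second A2780 library (-0.22 and -0.18). UQCRFS1 was not called, except without the first OVCAR3 library (-0.35). VSTM2B and ZNF536 were read in 1 of the 4 libraries only, both at 0.128 CPM in the first A2780 library. Their fitted log2 differences of -4.26 and -4.25 were not called, with edgeR adjusted p-values of 0.11 and 0.066, and depend on the prior count. Without the second A2780 library both were called (-5.23, at adjusted p-values of 0.0447 and 0.0116), and ZNF536 was also called by DESeq2's Wald test (-3.74) and without a filter (-4.21).

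Among 34 targets of p53, 10 were higher in OVCAR3 and 18 in A2780 (median -0.46). FAS, a death receptor, was at 109 and 107 CPM in A2780 and 14.7 and 16.2 CPM in OVCAR3. TIGAR, a regulator of glycolysis, was at 19.7 and 20.1 CPM against 1.48 and 1.85 CPM. SESN2, TNFRSF10B and CCNG1 were higher in A2780, at log2 differences from -1.22 to -1.35. MDM2, picked after its values were seen, was at 122 and 115 CPM in A2780 and 67.0 and 59.5 CPM in OVCAR3.

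Other p53 targets lay the other way. CDKN1A, which encodes the inhibitor p21, was at 92.2 and 90.4 CPM in OVCAR3 and 45.2 and 43.9 CPM in A2780. DDB2, a DNA damage sensor, was at 113 and 111 CPM against 49.5 and 46.7 CPM, and EDA2R, a receptor of the TNF family, at 10.4 and 14.6 CPM against 0. BAX overlapped, at 47.5 and 42.6 CPM against 47.2 and 50.7 CPM. ARID1A, a chromatin remodeller lost in some endometrioid tumours, was not called, at 78.9 and 106 CPM against 101 and 92.6 CPM.

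Of 56 DNA repair genes, 19 were higher in OVCAR3 and 20 in A2780, and the median was -0.002. The nucleotide excision repair genes ERCC1 and ERCC2 were higher in A2780, ERCC1 at 157 and 170 CPM against 55.7 and 60.5 CPM. ERCC6, EXO1, MLH3 and FANCB were higher in OVCAR3, by 1.46 to 2.03 on the log2 scale. BRCA1, picked after its values were seen, was at 92.8 and 87.8 CPM in A2780 and 56.5 and 63.1 CPM in OVCAR3.

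Transport and detoxification of platinum and other drugs held 21 genes higher in OVCAR3 and 14 higher in A2780 of 44 tested (median 0.24). Among the members higher in OVCAR3, GPX1, a glutathione peroxidase, was at 54.3 and 52.9 CPM against 0.160 and 0 CPM, the glutathione transferase GSTM1 at 67.5 and 64.0 CPM against 0.224 and 0.122 CPM, and GSTM3 at 140 and 133 CPM against 0. MT1E, a metallothionein, was at 72.7 and 81.8 CPM against 0. GSTM and MT1 genes have near-identical copies, so how reads were split among the copies is uncertain.

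Among the members higher in A2780, ABCB1, the drug pump P-glycoprotein, was at 18.7 and 17.8 CPM in A2780 and 0.195 and 0.0814 CPM in OVCAR3, and ABCC2, which exports glutathione conjugates, at 59.2 and 55.7 CPM against 1.06 and 1.20 CPM. HMOX1, heme oxygenase, was at 70.4 and 71.8 CPM against 11.4 and 11.5 CPM. Of the copper carriers linked to platinum, picked after their values were seen, SLC31A1 was at 241 and 225 CPM in A2780 and 52.7 and 59.7 CPM in OVCAR3, and ATP7B was higher in A2780, at a log2 difference of -0.79 ± 0.16. ATP7A overlapped, at 18.7 and 21.7 CPM in OVCAR3 and 25.5 and 19.6 CPM in A2780. GSTP1, at 529 and 437 CPM in OVCAR3 and 411 and 423 CPM in A2780, was not called (adjusted p of 0.07 in edgeR's test), but was called under 7 of 13 alternatives, one of them without the second OVCAR3 library.

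Interferon-stimulated genes, which cells switch on in defence against viruses, were called higher in A2780 at 38 of 51 tested and higher in OVCAR3 at 4 (median -1.07). OAS2, which senses double-stranded RNA, was at 44.7 and 43.6 CPM in A2780 and 0.836 and 0.733 CPM in OVCAR3. UBE2L6, an enzyme of ISG15 conjugation, was at 61.4 and 63.2 CPM against 1.45 and 1.67 CPM, and GBP2 at 84.6 and 92.6 CPM against 4.13 and 4.05 CPM. ISG15 itself overlapped, at 167 and 150 CPM in OVCAR3 and 163 and 165 CPM in A2780. PARP12 ran against the list, at 39.2 and 36.5 CPM in OVCAR3 and 0 and 0.0611 CPM in A2780, and IFI16 and IRF1 were higher in OVCAR3 by 1.60 ± 0.13 and 1.05 ± 0.11.

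ADAR, the gene of the editing enzyme ADAR1 and itself induced by interferon, was at 446 and 559 CPM in OVCAR3 and 582 and 550 CPM in A2780. The libraries overlapped, and the log2 difference of -0.12 ± 0.12 had an edgeR adjusted p of 0.38. Without the second OVCAR3 library the difference was -0.28 at an adjusted p of 0.039, and without the first it was 0.03, so whether ADAR is called rests on these libraries. ADARB1, which encodes ADAR2, was at 108 and 135 CPM in OVCAR3 and 17.2 and 16.6 CPM in A2780, a log2 difference of 2.89 ± 0.13. ADARB2 was not tested for want of reads.

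In the MHC class I pathway, which presents peptides to T cells, 7 of 18 genes were higher in OVCAR3 and 7 in A2780 (median -0.02). HLA-C, a class I heavy chain, was at 767 and 805 CPM in A2780 and 320 and 281 CPM in OVCAR3. PSMB8, a subunit of the immunoproteasome, was at 92.8 and 76.7 CPM in OVCAR3 and 0.289 and 0.581 CPM in A2780, and ERAP2, a peptide-trimming enzyme, at 3.51 and 3.09 CPM against 40.3 and 39.0 CPM. HLA genes are alike in sequence and differ between people, so their counts depend on how well each line's alleles match the reference.

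Inflammatory genes and NF-kB subunits were called higher in OVCAR3 at 15 and in A2780 at 6 of 26 (median 0.62). TNFAIP2 was at 187 and 188 CPM in OVCAR3 and 2.89 and 2.66 CPM in A2780, and the adhesion molecule ICAM1 at 20.5 and 21.7 CPM against 0.545 and 0.367 CPM. The subunit genes NFKB2 and RELB were higher in A2780, NFKB2 at 264 and 273 CPM against 77.8 and 74.3 CPM. CCL5, a T cell chemokine, was at 110 and 121 CPM in A2780 and 8 and 8.31 CPM in OVCAR3.

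Of 37 hypoxia and glycolysis genes, 24 were higher in OVCAR3 and 8 in A2780 (median 0.41). CA9, a surface carbonic anhydrase and classical target of HIF, was at 140 and 107 CPM in OVCAR3 and at 0 in A2780. PLOD2, a collagen-modifying enzyme, was at 141 and 145 CPM against 0.481 and 0.642 CPM, and NDRG1 at 131 and 141 CPM against 6.22 and 6.02 CPM. ANGPTL4 and the glucose transporter SLC2A3 were higher in A2780, ANGPTL4 at 71.8 and 75.4 CPM against 2.51 and 2.02 CPM. In 35 nuclear genes of the respiratory chain, 10 were higher in OVCAR3 and 8 in A2780, the median was 0.11, and the largest called differences were near 2-fold, SDHA at 1.23 ± 0.15 and NDUFB5 at -1.05 ± 0.12.

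Of 22 early-response genes tested, 8 were higher in OVCAR3 and 10 in A2780. DUSP6, a phosphatase induced by ERK signalling, was at 503 and 508 CPM in A2780 and 6.78 and 8.06 CPM in OVCAR3, and EGR1 at 198 and 204 CPM against 21.5 and 18 CPM. MYC was at 605 and 544 CPM in OVCAR3 and 46.7 and 51.5 CPM in A2780.

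Cancer-testis genes, silent in most adult tissues outside the germ line, were on in different sets. Of 36 listed only 15 were tested, 10 higher in OVCAR3 and 4 in A2780 (median 4.57, or 4.04 with genes without a read in 1 line at their bound). Since such genes can pass the filter through the line where they are on, this share and median are partly built in. CT83 was at 29.8 and 29.3 CPM in OVCAR3 and at 0 in A2780, and MAGEA4 at 9.84 and 10.6 CPM in A2780 and at 0 in OVCAR3. PRAME was read in both, at 262 and 245 CPM in A2780 and 60.6 and 55.7 CPM in OVCAR3. MAGEA3, at 88.7 and 80.6 CPM against 0.449 and 0.550 CPM, has a near-identical copy in MAGEA6 and its level is uncertain.

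Imprinted genes, read from 1 parental allele, were likewise split, 9 of 19 tested being higher in OVCAR3 and 5 in A2780. H19 was at 49.0 and 46.7 CPM in OVCAR3 and 0.577 and 0.489 CPM in A2780, and PLAGL1 at 62.0 and 77.8 CPM against 0.769 and 0.764 CPM. NDN was at 26.6 and 22.3 CPM in A2780 and at 0 in OVCAR3.

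Markers of other cells were low or split. The summed level of 16 immune cell genes was 1.80 to 3.93 CPM over the 4 libraries, with 4 of them at 0 in all 4. The 10 endothelial genes summed to 19.96 and 17.5 CPM in OVCAR3 and 4.52 and 3.15 CPM in A2780, with 2 at 0 in all 4 libraries. Of the 4 endothelial genes tested, 3 were higher in OVCAR3 and none in A2780 (median log2 difference 2.76). The other listed endothelial genes had too few reads to be tested. Fibroblast genes summed to 496 and 447 CPM in OVCAR3 and 761 and 740 CPM in A2780, 5 of 11 being higher in OVCAR3 and 3 in A2780. Of 10 granulosa and stroma genes 2 were higher in each line, AMH at 32.2 and 30.7 CPM in OVCAR3 and FOXL2 at 51.5 and 55.3 CPM in A2780 among them. Neural genes were higher in OVCAR3 at 4 and in A2780 at 8 of 19, with L1CAM at 658 and 780 CPM in OVCAR3 and MAP2 at 143 and 145 CPM in A2780. Replication-dependent histone genes were higher in OVCAR3 at 15 of 18 and in A2780 at 1, and mitochondrial transcripts at 2 and 7 of 13. Histone genes have near-identical copies and mostly lack a poly(A) tail, and the part of RNA selection in these counts was not tested.

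A stricter description asked which genes were on in one line, at 30 CPM or more in both libraries, and off in the other, under 0.3 CPM in both. There were 230 such genes, 159 on in OVCAR3 and 71 on in A2780, and 206 of them encode proteins. Some are antisense genes of others in the set, such as KRT7-AS, CD44-AS1 and COL4A2-AS1. Without the strand setting, reads of such pairs cannot be told apart, and a locus may be counted more than once. In A2780, 58 of the 159 had no read, and in OVCAR3, 33 of the 71 had none.

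These genes were then read in the other 5 groups, which the choice did not use. In the resistant OVCAR3 cells with the control hairpin, 113 of the 159 were on and none was off, and with hairpins sh1 and sh2 112 and 116 were on and none off. In resistant A2780, none of the 159 was on and 122 were off. Of the 71 genes of A2780, 45 were on and none off in resistant A2780, and 2 were on and 43 off in the hairpin control. In the libraries labelled OVCAR3-DDP, 31 of the 159 were on and 51 off, and 21 of the 71 were on and 16 off. The median level of the 159 genes was 66.6 CPM in parental OVCAR3, 58.0 CPM in the hairpin control and 3.88 CPM in OVCAR3-DDP.

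**Figure D4:**
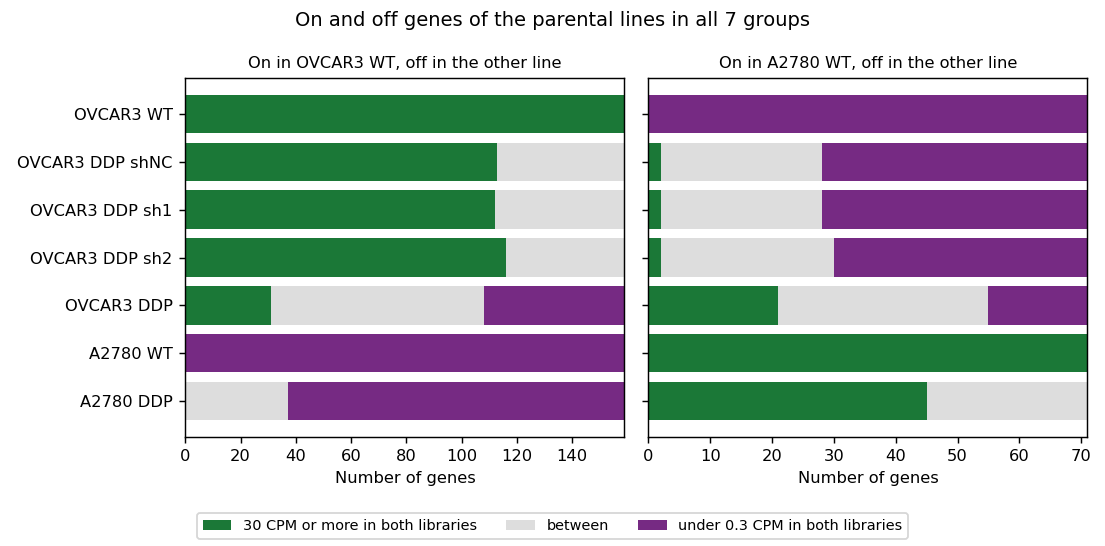
Number of genes on (green), off (purple) or between (grey) in each of the 7 groups, for the 159 genes on only in parental OVCAR3 (left) and the 71 on only in parental A2780 (right). The hairpin groups resemble parental OVCAR3 and resistant A2780 resembles parental A2780, while the libraries labelled OVCAR3-DDP hold both kinds.

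The promoters of the on-and-off genes were compared with those of other genes. With a GC content of at least 50% and an observed over expected CG ratio of at least 0.6 in the 250 bases upstream, 65 of 103 genes on in OVCAR3 (63.1%) and 28 of 48 on in A2780 (58.3%) were CpG-rich. The share was 85.4% among protein-coding genes at 30 CPM or more in all 4 libraries and 72.8% among all protein-coding genes tested, for those in RefSeq's table. These shares are descriptions with no test.

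Zinc finger genes, here those named ZNF, ZFP, ZSCAN or ZKSCAN, were singled out after their values were seen. They were higher in A2780 at 289 of 498 tested and in OVCAR3 at 92, with a median log2 difference of -0.67. Many genes of this family encode KRAB repressors, and clusters of them lie on chromosome 19. The 225 on that chromosome had 149 higher in A2780 and 26 in OVCAR3, and a median of -0.98. All 1117 protein-coding genes tested on chromosome 19 had a median of -0.47, with 577 higher in A2780 and 231 in OVCAR3. Many zinc finger genes are alike in sequence, and how the counting treated reads that match several of them bears on these values.

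Differences were also read along the chromosomes. The median log2 difference of protein-coding genes with a mean of at least 5 CPM was 1.01 on chromosome 18, 0.50 on chromosome 13 and 0.44 on X, and -0.47 on chromosome 4, -0.42 on 19 and -0.36 on 6. Of 10631 overlapping runs of 25 neighbouring genes, the middle 95% had medians from -0.91 to 0.98.

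The run highest in OVCAR3 lay on chromosome 13 from PCCA to CUL4A (100089015 to 113267108), with a median of 1.98, and 23 of its 25 genes were called higher in OVCAR3. Over the 4 pairings of an OVCAR3 with an A2780 library its median ranged from 1.82 to 1.92. These pair values are from log2(CPM + 0.5) without the scaling of the fit, so they need not enclose the fitted 1.98. On chromosome 18 the runs from ATP8B1 to CYB5A (1.91) and INO80C to RPL17 (1.67) had 24 and 25 genes called higher, and on chromosome 5 the run from LPCAT1 to BASP1 (1.65) had 24. On the A2780 side the lowest run lay on chromosome 9 from RFX3 to CCDC171 (3218297 to 16061663), with a median of -2.39 and 24 of 25 genes higher in A2780. The run on chromosome 4 from WDR17 to TLR3 had a median of -2.02, and that on 11 from BET1L to PIDD1 had -1.37. DNA copy number was not measured here.

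**Figure D5:**
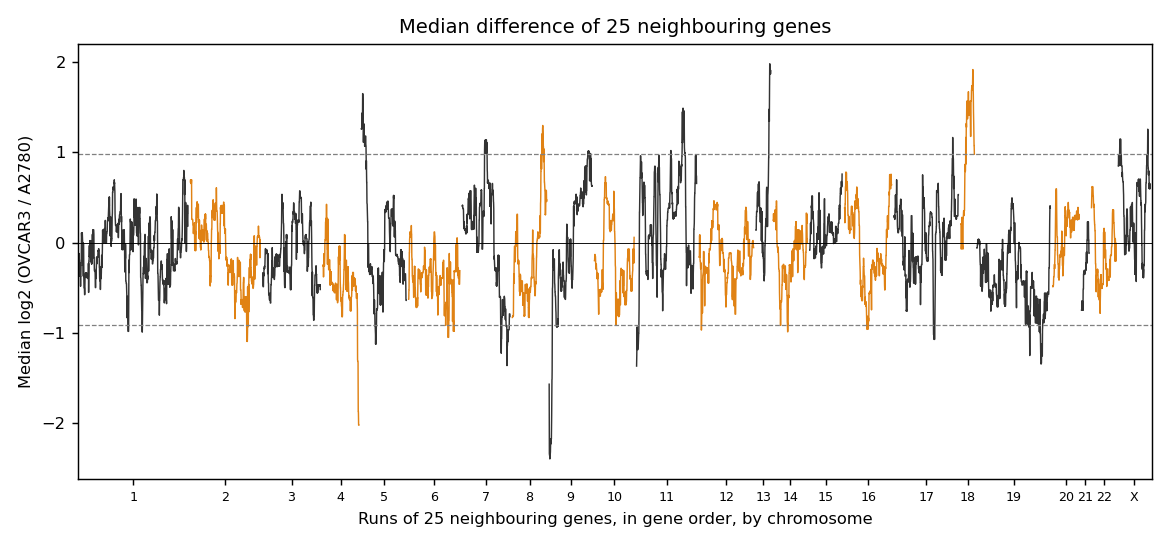
Median log2 difference between OVCAR3 and A2780 over 25 neighbouring genes, along the gene order of each chromosome, with alternating colours for chromosomes. Dashed lines enclose the middle 95% of runs, and the ends of chromosomes 13 and 18 rise above them while the start of 9 and the end of 4 fall below.

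The same comparison of lines was available in libraries that share none with the parental ones, the hairpin control of resistant OVCAR3 against resistant A2780. There 16653 of 24193 genes tested (68.8%) were called. Of 15171 genes called between the parental lines and tested there, 10263 (67.6%) were called with the same sign, 1605 (10.6%) with the opposite sign, and 3303 (21.8%) were not called. Across 14369 genes at 5 CPM or more in 1 of the 4 groups, the 2 sets of log2 differences correlated at r = 0.83 (Spearman 0.70). That value is over genes, which are not independent replicates. In this comparison the cell line, the hairpin vector and any batch of libraries cannot be told apart, and the titles name no batch.

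All 24 genes of the largest differences kept their side in the resistant cells. KRT7 averaged 1006 CPM in the hairpin control and 0.0305 CPM in resistant A2780, and TGFBI 963 and 0.0145 CPM. ALDH1A1 averaged 0.0211 CPM in the hairpin control and 1668 CPM in resistant A2780, and HGF 0 and 115 CPM. All 7 runs of neighbouring genes named above kept their sign, with medians of 1.82 for chromosome 13 and -2.04 for chromosome 9. The medians of several lists did not keep their size or sign. The median of interferon-stimulated genes was -0.005 in the resistant cells against -1.07 in the parental lines, that of hypoxia genes 2.42 against 0.41 and that of mesenchymal genes 2.07 against 0. The last 0 is the fitted value of a gene without reads in the parental libraries. Medians of opposite sign were found for mitosis genes (0.70 against -0.14), early-response genes (1.47 against -0.13), receptor tyrosine kinases (-0.17 against 0.25) and the respiratory chain (-0.24 against 0.11). For receptor tyrosine kinases and early-response genes the parental sign itself changed under 1 or more alternatives. These differences between medians were not tested.

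The line difference itself differed between parental and resistant libraries at 9903 of 24193 genes (40.9%), 5376 more positive and 4527 more negative in the parental lines. CCND2 was at 157 and 153 CPM in parental A2780 and averaged 2.41 CPM in resistant A2780 and 1.64 CPM in the hairpin control. CELF2, an RNA-binding protein, was at 11.5 and 14.5 CPM in parental OVCAR3 and at 0 in parental A2780, and averaged 18.6 CPM in the hairpin control and 30.8 CPM in resistant A2780. IGFBP3, which binds insulin-like growth factors, was at 154 and 152 CPM in OVCAR3 and 226 and 235 CPM in A2780 as parents, and averaged 1343 and 2.04 CPM as resistant cells.

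The other genes named by the size of this difference included 4 without reads in the hairpin control. KCTD11, EPOP and NSMCE3 had no read in any of the 6 hairpin libraries and TIGD5 had 7 in all, although each was at 21.3 CPM or more in every parental library. Of 8622 genes at 10 CPM or more in all 8 other libraries, 4 had no read in all 6 hairpin libraries, the first 3 of these and LENG9, which was picked after its values were seen.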

How the data were processed

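RNA of 14 libraries was sequenced, and 4 of them, the parental OVCAR3 and A2780 libraries, give the main comparison. The deposited files hold raw counts of reads per gene. Per the submitters' processing notes, STAR 2.7.8a, SAMtools, HTSeq 2.0.3 and FastQC 0.11.9 were used with the build GRCh38.p13. For the annotation release and strand setting: not given in the sources used here. The 5 summary lines of each file were left out. They include reads in no gene, 48.7% to 50.0% of all reads counted. Of 62757 gene IDs, 62639 were matched to a symbol, and gene types and coordinates are from GENCODE 29 on GRCh38, which holds 58274 of them.

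CPM were computed over assigned reads. Genes were tested with edgeR 4.0.16 (filterByExpr with a minimum count of 10, TMM scaling, quasi-likelihood fit, Benjamini-Hochberg adjustment over all genes tested), in 1 fit of the 8 libraries of OVCAR3-WT, OVCAR3-DDP, A2780-WT and A2780-DDP, with 4 residual degrees of freedom. The comparison in resistant cells and the difference of differences used a fit of all 14 libraries with 7. The fits were first tested on simulated counts, with few genes changed and the same spread for every gene. Far more genes differ in these data, so that test does not cover the scaling or the error rate here. Differences are log2 of OVCAR3 over A2780, with their standard error. Lower bounds set a group without reads at 3 counts, and counting intervals (95%) cover counting error only. DESeq2 1.42.0, limma 3.58.1 with voom, and other scalings, filters and library sets served as alternatives. Promoter sequences were taken from RefSeq's table for GRCh38.p14, of which the 250 bases upstream of the start were used.

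Genes were named by rule: the 12 protein-coding genes per direction with the largest fold among called genes at 30 CPM or more in every library of the higher line without overlap, the 5 largest called members of each list per direction at 10 CPM or more, up to 3 uncalled members with the highest level, all ovarian markers, HOX genes and CCNE1 neighbours, ARID1A, ADAR, ADARB1 and ADARB2, and the 5 largest differences of differences per direction. Some genes that these rules name are not reported here, and the counts over lists include them. EGFR, VIM, CDH2, MDM2, BRCA1, SLC31A1, ATP7A, ATP7B, LENG9 and the zinc finger genes were named after their values were seen. The comparison, the 33 gene lists and these rules were chosen with earlier results of these data known.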

Additional observations from a re-analysis of the deposited data

Results flagged for a closer look

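The line difference was tested for a change between the parental libraries and the resistant ones, OVCAR3 with the control hairpin and A2780-DDP, in edgeR's fit of all 14 libraries. It differed at 9903 genes. The fitted difference of the log2 differences was 13.97 for TIGD5, 13.92 for KCTD11, 13.62 for EPOP, 12.66 for NSMCE3 and 12.11 for CELF2, all more positive in the parental lines. It was -11.41 for MYEOV, -11.16 for CCND2, -10.10 for IGFBP3 and -9.28 for PLA2G3. TIGD5, KCTD11, EPOP and NSMCE3 had no read in the hairpin control and CELF2 none in parental A2780, so the size of their fitted values depends on the prior count and is no bound. MYEOV was at 18.1 and 17.4 CPM in parental A2780 and 1.62 and 2.69 CPM in parental OVCAR3, and averaged 0.194 CPM in resistant A2780 and 59.8 CPM in the hairpin control. PLA2G3, a secreted phospholipase, was at 113 and 117 CPM in parental A2780 and 1.56 and 1.12 CPM in OVCAR3, and averaged 0.212 CPM in the hairpin control and 0.0305 CPM in resistant A2780. The part of the hairpin vector, or of any batch of libraries, in these differences was not tested.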

How the results depend on the processing

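With a mean of at least 5 CPM as the filter, 13172 genes were tested and 9989 called, 4953 higher in OVCAR3 and 5036 in A2780, 4520 of them at least 2-fold, since fewer genes were tested. Without 1 library the calls between the parental lines numbered 13406 to 14961, 6469 to 7482 higher in OVCAR3 and 6937 to 7479 in A2780, and 9009 to 9539 were at least 2-fold. In the resistant cells 14965 to 17180 genes were called without 1 library, and the line difference differed at 8319 to 9688. OVCAR3 was higher at 48.3% to 51.4% of the called genes over all settings, so which line had more calls depends on the setting: DESeq2's size factors gave 7711 higher in OVCAR3 and 7477 in A2780. With levels of 10 and 0.1 CPM there were 396 on-and-off genes. The highest and lowest runs had medians of 2.57 and -2.61 over 15 genes and 1.68 and -1.94 over 50.

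Same-numbered replicates of the 2 parental groups did not deviate together (correlation -0.08). Over all pairs of groups the correlation ranged from -0.14 to 0.32, the highest being parental OVCAR3 with A2780-DDP. Whether same-numbered libraries were handled together cannot be told from these values. With a replicate block 14984 genes were called between the parental lines, 16405 in the resistant cells and 9666 for the difference of both.

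Of 187 called genes named in the text or by the flags, 184 kept their direction and call under all 13 alternatives, and MUC16, C19orf12 and NSMCE3 kept their direction but lost the call under 1 or more. Sign changes touched only uncalled genes, whose differences lie near 0. ARID1A was 0.0273 with DESeq2's size factors, 0.0268 with its Wald test, 0.0226 with upper-quartile scaling, 0.0245 without a filter, 0.0549 at 5 CPM or more, 0.0104 in the 4 parental libraries alone and 0.0129 in all 14. ISG15 was 0.0409 with both uses of DESeq2, 0.0363, 0.0354, 0.0654, 0.0227 and 0.025 in the same order. Without 1 library the difference ranged from -0.227 to 0.179 for ARID1A, -0.0864 to 0.0875 for ISG15, -0.0271 to 0.468 for MECOM, -0.443 to 0.0779 for HOXA5, -0.28 to 0.0623 for ATP7A, -0.278 to 0.0282 for ADAR, -0.155 to 0.0197 for BAX, -0.366 to 0.0501 for TGFB1 and -0.0766 to 0.133 for TJP1. List medians changed sign under 1 or more alternatives for 5 of 33 lists. With 5 CPM or more the median was -0.23 for receptor tyrosine kinases (0.25 as reported) and -0.71 for granulosa and stroma genes (0.01), and without the second OVCAR3 library it was 0.002 for early-response genes (-0.13). The other 2, DNA repair and MHC class I, stayed under 0.1 in size. Over the 33 lists, 30 medians moved by more than the spread between pairs of libraries under 1 or more alternatives. Depth limits what can be said of genes with few reads, such as CDH1 and VSTM2B.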
